A study of Homo sapiens with 2 samples.

Results

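AP-1 is a family of paired transcription factors, and 9 of the 10 genes described here encode transcription factors of that family or of the immediate early response. They are JUN, JUNB, JUND, FOS, FOSL1, FOSL2, ATF2, ATF3, EGR1 and IER2, chosen by symbol with earlier results of these data known, and all 10 have a row among the 43337 genes of the deposited table. The libraries came from cells labelled as the triple-negative breast cancer line BT549, 1 library with SIK1 WT and 1 with SIK1 S435D. Going by the series' design text, both overexpress SIK1, a protein kinase of the AMPK family. In S435D an aspartate takes the place of a serine, a change often made to imitate a phosphate. Cells that lack the construct were not analysed here, and the sources used here do not say how the construct was delivered or whether a line is 1 clone.

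AP-1 factors carry a basic leucine zipper, with which JUN proteins pair with themselves, with FOS proteins or with ATF proteins and bind DNA. FOS proteins cannot pair with one another and need a JUN partner. Immediate early genes such as FOS and EGR1 are known for brief induction by growth factors through MAP kinases, without new protein synthesis. SIK kinases are known to phosphorylate the CRTC coactivators and to hold them in the cytoplasm, away from CREB, which binds the cAMP response element. In mesenchymal breast cancer cells AP-1 is known for driving genes of invasion.

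The deposited RPKM (reads divided by gene length and by the library's total) let whole reads be recovered, 22366506 (WT library) and 23520828 (S435D library). With 1 library per group there was no replicate check and no test, and all intervals are 95% intervals that cover counting error only. In such bulk RNA, fewer cells that express a gene and less RNA per cell cannot be told apart. SIK1 stood at 380 RPKM (WT library) and 422 RPKM (S435D library), with CH507-42P11.8, a near-identical gene on the same chromosome, at 450 and 522. The ratios of S435D to WT were 1.11 (1.09 to 1.12) for SIK1 and 1.16 (1.14 to 1.17) for CH507-42P11.8. How reads that match both genes were assigned is not stated in the sources used here. The level of SIK1 RNA and the S435D change differ together between the libraries and cannot be told apart. Of 5 mesenchymal markers, VIM was at 116 and 113 RPKM, SPARC at 14.7 and 12.9, and ZEB1 at 5.98 and 6.34. CAV1, at 0.964 and 0.989 RPKM, and FN1, at 1.16 and 1.17, were low, which goes against the mesenchymal profile BT549 is known for. RB1, known as lost in BT549, had reads in both libraries, at 1.47 and 1.98 RPKM. Of the luminal markers, ERBB2 was at 10.6 and 10.05 RPKM, GATA3 at 2.49 and 2.30, EPCAM at 2.48 and 2.11 and CDH1 at 0.651 and 0.798, while ESR1 had 1 read and 0 reads and PGR 0 in both. PTPRC and PECAM1, of leukocytes and endothelium, had 0 reads in both libraries, and CD3E, of T cells, 0 and 2. The name BT549 is therefore used as a label, and these markers did not settle the identity.

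The promoters are shown first, because CREB, AP-1 and SRF act on such genes through short elements that can be read there. RefSeq windows (GRCh38.p14) from 250 bases before to 50 bases after a gene's start were matched by symbol for 8 of 10 members, with 9 windows since ATF3 has 2. ATF2 and FOSL1 were not matched. Distances count from the start used for the window, which can differ from the gene positions given below. The JUN window, the FOSL2 window and the second ATF3 window lie wholly inside those gene spans. Printed are the 3 genes with the highest level (JUN, ATF3 at its first start, JUND), IER2, which with ATF3 had a counting interval that left out 1, and EGR1, whose window held CArG boxes, the sites of SRF. Capitals mark every match, on either strand, to the motifs described after the sequences.
JUN (chr1:58783998-58784297, minus strand): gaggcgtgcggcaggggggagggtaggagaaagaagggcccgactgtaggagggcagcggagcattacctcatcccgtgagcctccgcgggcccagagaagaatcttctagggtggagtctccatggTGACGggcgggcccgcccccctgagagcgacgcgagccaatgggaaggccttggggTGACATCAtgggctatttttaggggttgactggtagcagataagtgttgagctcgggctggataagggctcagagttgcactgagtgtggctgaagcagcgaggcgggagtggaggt
JUND (chr19:18281573-18281872, minus strand): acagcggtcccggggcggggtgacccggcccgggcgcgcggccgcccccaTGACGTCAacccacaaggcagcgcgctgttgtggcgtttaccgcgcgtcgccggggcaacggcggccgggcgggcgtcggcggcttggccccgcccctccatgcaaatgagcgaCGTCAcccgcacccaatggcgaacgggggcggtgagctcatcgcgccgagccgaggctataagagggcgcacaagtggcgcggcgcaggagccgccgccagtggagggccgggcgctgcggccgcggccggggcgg
ATF3 (chr1:212565157-212565456, plus strand): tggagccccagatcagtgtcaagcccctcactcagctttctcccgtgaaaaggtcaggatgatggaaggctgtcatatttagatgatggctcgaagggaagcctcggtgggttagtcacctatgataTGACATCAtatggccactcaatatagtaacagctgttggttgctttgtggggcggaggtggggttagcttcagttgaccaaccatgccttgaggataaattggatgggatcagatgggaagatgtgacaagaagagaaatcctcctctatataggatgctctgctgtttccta
IER2 (chr19:13150161-13150460, plus strand): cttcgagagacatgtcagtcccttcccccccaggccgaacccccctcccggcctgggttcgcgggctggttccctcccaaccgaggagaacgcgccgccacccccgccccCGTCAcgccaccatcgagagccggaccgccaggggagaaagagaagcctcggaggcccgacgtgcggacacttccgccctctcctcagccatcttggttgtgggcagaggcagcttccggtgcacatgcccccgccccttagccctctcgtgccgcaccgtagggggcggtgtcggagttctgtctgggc
EGR1 (chr5:138465229-138465528, plus strand): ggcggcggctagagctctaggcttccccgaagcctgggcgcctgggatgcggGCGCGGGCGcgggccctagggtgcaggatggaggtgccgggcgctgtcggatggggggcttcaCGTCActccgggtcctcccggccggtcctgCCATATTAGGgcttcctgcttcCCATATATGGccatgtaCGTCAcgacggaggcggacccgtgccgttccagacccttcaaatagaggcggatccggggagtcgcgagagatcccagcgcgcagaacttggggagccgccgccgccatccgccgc

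The motifs searched on both strands were the cAMP response element TGACGTCA, its core TGACG, the site TGACATCA known to bind JUN with ATF2 in the JUN promoter, the AP-1 site TGANTCA, the EGR1 site GCGNGGGCG and the CArG box by its name. TGACG is contained in TGACGTCA, so these matches overlap. The core TGACG lay in 7 of 9 windows, those of JUN, JUNB, JUND, FOS, FOSL2, EGR1 and IER2, and in 24.6% of 35116 promoter windows of the same length. The full element TGACGTCA lay in the JUND window alone among the members, from base -200 to -193 counted from the start at 0, and in 1.85% of all windows. TGACATCA lay in the JUN window from base -67 to -60 and in the first ATF3 window from -123 to -116, and in 2.61% of all windows. The AP-1 site was found in the FOSL2 window, from base 4 to 10, and in 7.71% of all windows. EGR1 held both CArG boxes found among the members, from base -105 to -96 and from -83 to -74, against 1.29% of windows with at least 1, and an EGR1 site, which 9.43% of windows held. JUN and FOS, the highest and the lowest of the members by RPKM, both held a core TGACG. These matches are letters in a window and were not tested for binding. Sites outside the windows were not searched, so a member without a match may hold one farther away.

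**Figure D1:**
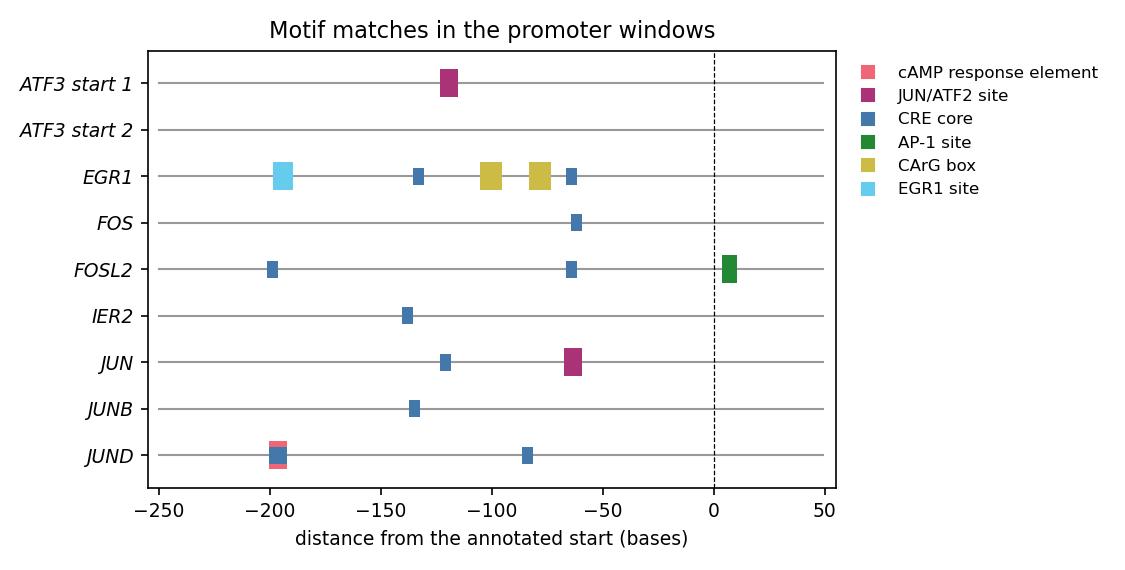
Motif matches in the 9 promoter windows, drawn by distance in bases from the annotated start (dashed line at 0), with 1 row per window and a coloured box for each match. Core matches (TGACG) lie in 7 of 9 rows, and EGR1 alone holds CArG boxes within its window. Sites outside the windows were not searched.

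Among the JUN proteins, which can form pairs with all other members of the family, JUN was by far the highest. JUN (ENSG00000177606.6, chromosome 1, 58780788 to 58784327, minus strand, 1 exon) stood at 344.7 RPKM (WT library) and 342.5 RPKM (S435D library), on 27295 and 28516 reads. The ratio of S435D to WT was 0.993 (0.977 to 1.01). The interval included 1, except when both libraries were rescaled to the same RPKM total, where the log2 ratio was -0.071 and the interval lay below 1. JUN lay at percentile 98.9 of expressed protein-coding genes in both. Of the 757 coding genes with at least 10000 reads over both libraries, 62.7% had a counting interval that left out 1, and that of JUN included it.

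JUND, the JUN protein most known for steady expression in resting cells (ENSG00000130522.5, chromosome 19, 18279760 to 18281622, minus strand, 1 exon), was at 20.5 RPKM (WT library) and 21.2 RPKM (S435D library), on 853 and 927 reads, a ratio of 1.03 (0.941 to 1.14). JUNB, known for holding JUN activity in check (ENSG00000171223.5, chromosome 19, 12791496 to 12793315, plus strand, 1 exon), was at 10.9 and 10.3 RPKM, on 443 and 442 reads, a ratio of 0.949 (0.830 to 1.08). Both intervals included 1, so neither gene was apart between the libraries beyond counting error. JUNB shares 259 exon bases with HOOK2 on the opposite strand, which had 1040 and 1095 reads, and the sources used here do not give the strand setting. The sum of the 3 JUN genes was 376 RPKM (WT library) and 374 RPKM (S435D library), of which JUN made up 91.7% and 91.6%.

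FOS proteins, the partners of JUN, were at far lower levels. FOSL1, also called FRA1 (ENSG00000175592.8, chromosome 11, 65892049 to 65900573, minus strand, 4 exons), led them at 6.40 RPKM (WT library) and 6.60 RPKM (S435D library), on 270 and 293 reads, a ratio of 1.03 (0.872 to 1.22). FOSL2, or FRA2 (ENSG00000075426.11, chromosome 2, 28392448 to 28417312, plus strand, 7 exons), was at 0.562 and 0.487 RPKM, on 90 and 82 reads, a ratio of 0.866 (0.634 to 1.18). FOS, the founding immediate early gene (ENSG00000170345.9, chromosome 14, 75278774 to 75282230, plus strand, 3 exons), was at 0.207 and 0.263 RPKM, on 15 and 20 reads, a ratio of 1.27 (0.617 to 2.66). The intervals of all 3 included 1. That of FOS, on 15 and 20 reads, was wide enough to hold a 2-fold increase as well, though not a 2-fold decrease. FOSB, the remaining gene of the family and not a member here, had 38 (WT) and 30 (S435D) reads. The 4 FOS genes summed to 7.47 and 7.58 RPKM, with FOSL1 at 85.6% and 87.1% of the sum. Summed RPKM of the JUN genes was 50.3 times (WT library) and 49.3 times (S435D library) that of the FOS genes, a comparison of mRNA per length and not of protein.

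The ATF proteins pair with JUN and lead it towards sites like the cAMP response element. ATF3, a stress-induced factor (ENSG00000162772.16, chromosome 1, 212565334 to 212620777, plus strand, 5 exons), was at 21.9 RPKM (WT library) and 24.5 RPKM (S435D library), on 1976 and 2328 reads. The ratio was 1.12 (1.05 to 1.19), the one member whose counting interval lay above 1. An interval above 1 was found for 8.71% of the 13290 expressed genes, those whose mean over the pair of libraries reached 1 RPKM, and 4.90% had one together with a ratio at least that of ATF3. Depth weighs in this count: of 1667 coding genes with 3000 to 10000 reads, the class of ATF3, 39.9% had an interval that left out 1. ATF2, a factor that is present without induction and is switched on by stress kinases (ENSG00000115966.16, chromosome 2, 175072250 to 175168382, minus strand, 21 exons), was at 1.68 and 1.44 RPKM, on 216 and 195 reads, a ratio of 0.858 (0.704 to 1.05). ATF2 shares 246 exon bases with AC096649.2 on the opposite strand, which had 14 and 13 reads.

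The immediate early genes outside AP-1 were low or moderate. EGR1, a zinc finger factor induced through SRF (ENSG00000120738.7, chromosome 5, 138465490 to 138469315, plus strand, 2 exons), was at 0.869 RPKM (WT library) and 0.881 RPKM (S435D library), on 61 and 65 reads, a ratio of 1.01 (0.703 to 1.46). IER2, a nuclear protein of the immediate early response (ENSG00000160888.6, chromosome 19, 13150415 to 13154908, plus strand, 2 exons), was at 9.91 and 8.71 RPKM, on 681 and 629 reads. The ratio of IER2 was 0.878 (0.787 to 0.980), the one member whose counting interval lay below 1. Such an interval was found for 14.7% of expressed genes, and 8.01% had one together with a ratio no higher than that of IER2. IER2 holds the whole of CTC-250I14.6, a gene of 946 bases on the opposite strand with 496 and 460 reads. The strand setting is not given, so whether these reads also count towards IER2 is not known. With the reads of that gene taken off, a step added after the values had been seen, IER2 had 185 and 169 reads. The ratio was then 0.869 (0.701 to 1.08), which includes 1. This step gives none of the shared reads to IER2, though they may come from either gene.

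**Figure D2:**
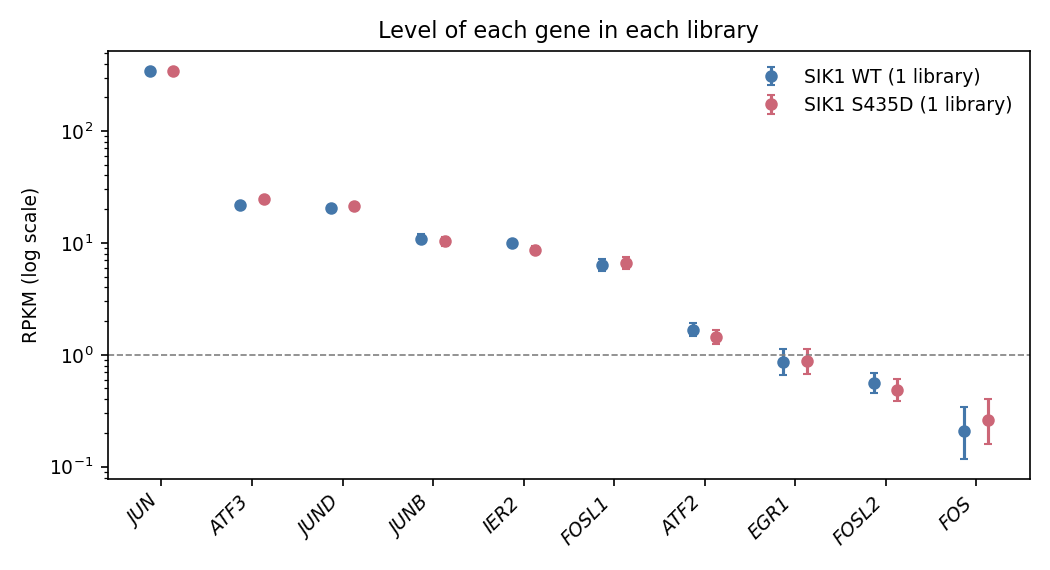
RPKM (log scale) of each gene in the SIK1 WT library (blue) and the SIK1 S435D library (red), with exact Poisson 95% intervals, in order of the mean; the dashed line is at 1 RPKM. JUN stands at 344.7 and 342.5 RPKM, above all others, and EGR1, FOSL2 and FOS have means under 1 RPKM.

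The order of the levels was the same in both libraries, JUN, ATF3, JUND, JUNB, IER2, FOSL1, ATF2, EGR1, FOSL2 and FOS. JUN was 15.8 times (WT library) and 14.0 times (S435D library) the level of ATF3, the next in order. The ratio of each gene to the next in order was given an exact counting interval, a step added after the values had been seen. JUNB was at 1.10 times (0.972 to 1.24) the level of IER2 in WT and 1.19 times (1.05 to 1.34) in S435D. ATF3 was at 1.07 times (0.985 to 1.16) the level of JUND in WT and 1.16 times (1.07 to 1.25) in S435D. In WT both of these intervals included 1, and in S435D both lay above 1. The intervals of the other neighbours lay above 1 in either library, among them EGR1 over FOSL2 (1.55, 1.10 to 2.16 in WT) and FOSL2 over FOS (1.85, 1.13 to 3.19 in S435D). The place of IER2 depends on whether its count includes the reads of CTC-250I14.6, which is not known without the strand setting. If it does, the shared reads may come from either gene. With none of them given to IER2, it was at 3.89 and 3.38 RPKM over the 2126 bases outside CTC-250I14.6, below FOSL1. Those values cover these bases only, so the place of IER2 in the order was not settled.

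Over the members, 7 of 10 were expressed by that rule, and EGR1, FOSL2 and FOS did not. Of these 7, 0 had a ratio of at least 2 and 0 a ratio of at most 0.5, limits that 0.632% and 0.873% of expressed genes passed. Among the 9756 expressed genes annotated as protein-coding, as all members are, the shares were 0.0308% and 0.0205%. On RPKM as deposited, ATF3, JUND and FOSL1 were higher in the S435D library and JUN, JUNB, ATF2 and IER2 lower, against 42.9% of expressed genes higher and 57.1% lower. The count of 1 interval above 1 and 1 below 1 among 7 stands beside 8.71% and 14.7% of expressed genes, or 9.72% and 15.9% of the coding ones, and is near that background.

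On the scale of log2((S435D RPKM + 0.5)/(WT RPKM + 0.5)), which understates differences of low genes, the 7 members had a median of -0.0094 and ran from -0.18 for IER2 to 0.16 for ATF3. This median turned above 0 without a filter, at a mean of at least 5 RPKM and under 3 scalings, so no direction is given for the group. All expressed genes had a median of -0.024, and the coding ones a median of -0.020 with 90% between -0.23 and 0.19. Every member, the 3 low ones included, lay within that range at this pseudocount. Without a pseudocount, FOS at a ratio of 1.27 lay above the 90% range of coding genes, 0.829 to 1.16. ATF3 was at percentile 92.7 of the log2 ratios of expressed coding genes and IER2 at percentile 9.74. ATF3 and FOS stayed higher in the S435D library, and JUNB, FOSL2, ATF2 and IER2 lower, under each pseudocount and scaling tried. JUND, FOSL1 and EGR1 turned lower when both libraries were rescaled to the same RPKM total, and JUN turned higher under 3 other scalings, so the sign of those 4 genes depended on the scaling. That of FOS rests on 15 and 20 reads, and its interval included 1.

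**Figure D3:**
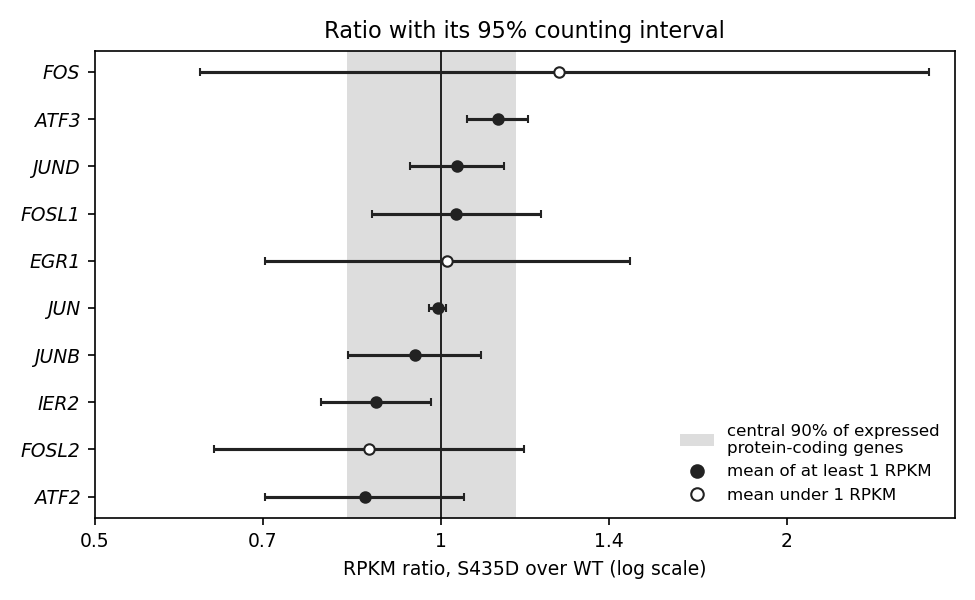
Ratio of RPKM, S435D over WT (log scale), with exact 95% counting intervals; open circles are genes with a mean under 1 RPKM, and the grey band holds the central 90% of expressed protein-coding genes. The interval of ATF3 lies above 1 and that of IER2 below it, and the others include 1.

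**Figure D4:**
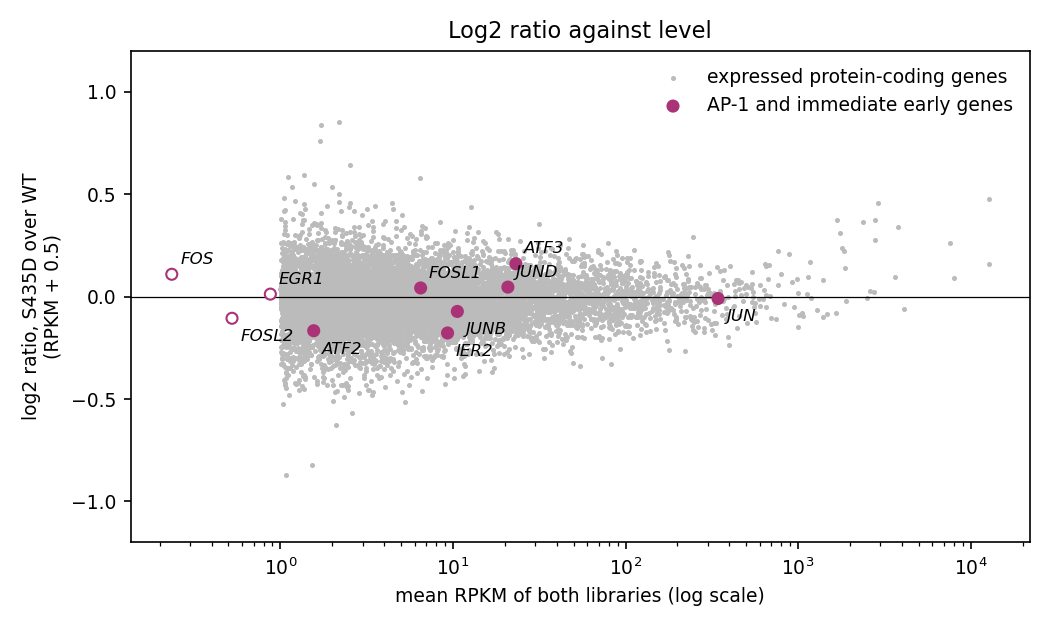
Log2 ratio of S435D to WT (RPKM + 0.5) against the mean RPKM of both libraries (log scale), for 9756 expressed protein-coding genes (grey) and the 10 members (purple, open where the mean is under 1 RPKM). The members lie inside the grey cloud or to its left, between -0.18 and 0.16.

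Genes around AP-1 were read from lists that are not the members. Of 15 other AP-1 and related basic leucine zipper factors, 11 were expressed; in the S435D library 5 of them were higher and 6 lower, and their median log2 ratio was -0.0044, which 3 scalings and the mean in place of the median turned above 0. ATF4, the factor of the amino acid response, was the most abundant at 550 RPKM (WT library) and 548 RPKM (S435D library), above JUN. ATF7, a relative of ATF2, was at 2.28 and 2.64 RPKM (ratio 1.16, 1.01 to 1.32), and MAF at 2.56 and 2.24 (0.877, 0.759 to 1.01). ATF7 was the one gene of this list whose interval left out 1.

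Of 31 other immediate early genes, 21 were expressed (8 higher, 13 lower), and the median log2 ratio was -0.037. The farthest from 0 were IER5L, with 67 and 99 reads (ratio 1.41, 1.02 to 1.95), KLF10, a zinc finger factor induced by TGF-beta, with 371 and 490 reads (1.26, 1.10 to 1.44), and HBEGF, a ligand of the EGF receptor, with 122 and 161 reads (1.25, 0.986 to 1.60). PPP1R15A, which helps to end the stress response, was the most abundant at 70.0 RPKM (WT library) and 72.1 RPKM (S435D library) (1.03, 0.990 to 1.07). In this list 2 intervals lay above 1 and 3 below it, beside 8.71% and 14.7% of expressed genes. The 3 below, named after their values were seen, were those of MCL1 (0.870, 0.812 to 0.933), IER5 (0.905, 0.857 to 0.955) and MYC (0.927, 0.876 to 0.981). EGR2 and EGR3, named after their values were seen, had 21 and 14 reads (0.255 and 0.161 RPKM) for EGR2 and 18 and 19 reads (0.166 and 0.166 RPKM) for EGR3, beside 0.207 and 0.263 RPKM for FOS.

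The kinases and factors that act on AP-1 genes were next. Of 24 MAP kinases and activators 17 were expressed (8 higher, 9 lower), and the median log2 ratio was -0.013, and MAPK3, or ERK1, was the most abundant at 26.1 and 25.8 RPKM. RPS6KA4, a kinase of chromatin and CREB, had a ratio of 1.16 (1.01 to 1.32) and MAPK12, a p38 kinase, 0.890 (0.824 to 0.961). Of 11 SRF-side and CREB-side inducers 9 were expressed (3 higher, 6 lower), and the median log2 ratio was -0.012. ATF1, a relative of CREB, had a ratio of 0.839 (0.711 to 0.989), ELK1, a partner of SRF, 1.13 (1.04 to 1.22) and CREM 0.898 (0.801 to 1.01), while CRTC2 was the most abundant at 15.98 and 16.7 RPKM. Both medians were nearer to 0 than that of all expressed genes, -0.024. Each turned above 0 when centred on the median of all genes or scaled by a trimmed mean. At a mean of at least 5 RPKM they were 0.040 for the MAP kinases and 0.062 for the inducers.

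Of 16 feedback genes of MAP kinase signalling, 5 were expressed (3 higher, 2 lower), and the median log2 ratio was 0.013 and no interval that left out 1. DUSP16, the most abundant, was at 4.65 and 4.30 RPKM (0.925, 0.824 to 1.04), DUSP5 at 1.23 and 1.48 (1.202, 0.873 to 1.66) and SPRY2 at 2.15 and 2.02 (0.938, 0.740 to 1.19). DUSP6, a phosphatase of ERK named after its values were seen, had 1 (WT) and 2 (S435D) reads.

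Of 18 AP-1 target genes 4 were expressed, beside 54.1% of all coding genes, 3 of them higher and 1 lower. Their median log2 ratio was 0.091 and turned to -0.016 when both libraries were rescaled to the same RPKM total and to 0 without a filter on low values. HMGA1, a chromatin protein, was the most abundant at 223 and 237 RPKM (1.06, 1.04 to 1.09), PLAUR, the receptor of urokinase, had a ratio of 0.875 (0.768 to 0.997), CCND1, or cyclin D1, 1.10 (0.944 to 1.29) and TIMP1 1.07 (0.966 to 1.18). The matrix metalloproteinase genes MMP1, MMP3, MMP10 and MMP13 and the cytokine gene IL6 were at 0 reads in either library, for which 3 reads is the 1-sided upper limit used here. CD44 and THBS1, named after their values were seen, had 8 and 2 reads (WT library) and 8 and 1 reads (S435D library).

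Of 8 partners and turnover factors 7 were expressed (2 higher, 5 lower), and the median log2 ratio was -0.10. COPS5, or JAB1, a coactivator of JUN within the COP9 signalosome, was at 8.13 RPKM (WT library) and 6.56 RPKM (S435D library), on 1414 and 1200 reads, a ratio of 0.807 (0.747 to 0.872). COP1, listed as RFWD2 in the table and part of a ligase that marks JUN for degradation, had a ratio of 0.923 (0.837 to 1.02), and ITCH, another ligase of JUN, one of 0.886 (0.763 to 1.03). COPS5 was the farthest from 0 of this list, and of all listed genes below 0.

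**Figure D5:**
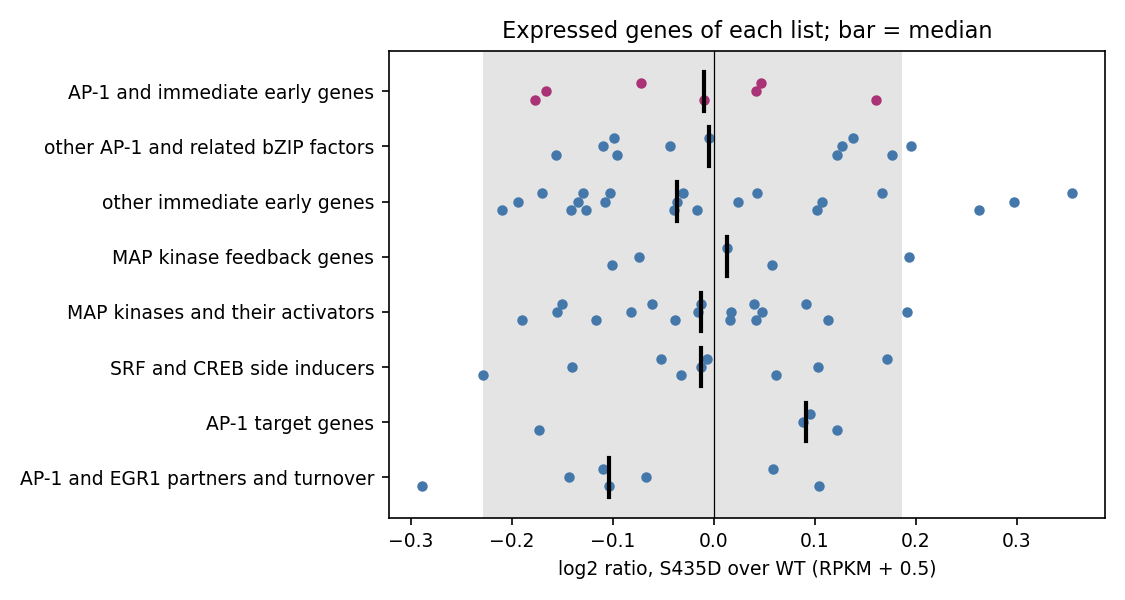
Log2 ratio of S435D to WT (RPKM + 0.5) of the expressed genes of each list (1 point a gene, vertical bar at the median); the grey band holds the central 90% of expressed protein-coding genes. Medians run from -0.10 for the partners and turnover factors to 0.091 for the 4 expressed target genes.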

How the data were processed

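RNA from 2 libraries, 1 per SIK1 construct, had been sequenced. The authors deposited RPKM per gene with gene positions and length, per the file headers; the sources used here do not name the aligner, counter, strand setting or build. All 10 members had the start and end of GENCODE release 29 (GRCh38). Reads were recovered as RPKM times length in steps of 1 read (100% of values above 0 whole within 0.01 reads). Ratios carry exact conditional binomial (Clopper-Pearson) intervals and levels exact Poisson intervals, at 95%, tested on simulated data; log2 ratios used a pseudocount of 0.5 RPKM, and a mean of 1 RPKM or more made a gene expressed. The members and lists were chosen with earlier results of these data known. Named were all members, SIK1, overlapping genes, the marker lists, and from each other list the 3 expressed genes farthest from 0 and the most abundant one, of which some are not reported here; any other gene is marked as chosen after its values were seen. No gene was sought for a like pattern, since 2 libraries give no pattern beyond a direction. Alternatives were pseudocounts of 0.1 and 1 RPKM, filters of none and 5 RPKM, 4 scalings, a 1.5-fold rule, 99% intervals and list means. Software was SciPy 1.17.1, pandas 2.3.3, numpy 2.4.6 and matplotlib 3.10.9 under Python 3.11.15.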

Additional observations from a re-analysis of the deposited data

How the results depend on the processing

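No paired analysis was possible because each group holds 1 library and no test was run. The counts of members past 2-fold were 0 under every alternative, the 1.5-fold rule included. The count of members with an interval above 1 was 1 under every alternative. The count with an interval below 1 was 1 as reported, 2 when both libraries were rescaled to the same RPKM total, with JUN as the second, 0 at 99% intervals, and 0 when the reads of its antisense gene were taken off IER2. The log2 ratio of JUN, -0.0094, moved beyond its counting interval to 0.015 when centred on the median, to 0.017 with a trimmed mean of log ratios and to -0.071 with the same RPKM total, and it was the one member to do so under the pseudocounts and scalings tried. The members' median ran from -0.071 to 0.017. Before the pseudocount, the rescaling shifted log2 ratios by -0.062 and the trimmed mean by 0.027. With the pseudocount of 0.5 RPKM added after scaling, the shifts of low genes differed. Under the rescaling FOS went from 0.11 to 0.15 and FOSL2 from -0.11 to -0.19. The rescaling multiplied levels by 2.50 (WT library) and 2.40 (S435D library), by its construction. Depth limits FOS, FOSL2 and EGR1 most.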

Other observations

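Base composition and AU-rich elements, features that the choice of members did not use, were read from the longest coding transcript of each gene in GENCODE release 29. The 7 expressed members had a median of 60.04% GC against 50.3% over 9718 expressed coding genes. Over all 10 members the median was 56.0%, from 36.9% in ATF2 to 69.7% in JUND. The median log2 ratio of expressed coding genes ran from -0.053 to 0.029 across 10 bins of GC content, with 0.029 in the bin of JUNB and JUND and -0.037 in that of ATF3. The part of GC content in the members' ratios was not tested.

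AU-rich elements in the 3' untranslated region are known to shorten the life of many immediate early mRNAs. The nonamer TTATTTATT was found in 2 of 10 members, FOS and FOSL2, both with a mean under 1 RPKM, and in 0 of the 7 expressed members, against 772 of 9718 expressed coding genes (7.94%). The shorter ATTTA occurred 9 times in FOSL2, 8 in ATF2, 5 in FOS, and 3 each in JUN and ATF3. JUNB held 2, JUND, FOSL1 and EGR1 held 1 each, and IER2 held 0. The median count was 2 in the 7 expressed members and also 2 over the expressed coding genes. FOSL2 and ATF2 had the longest 3' untranslated regions among the members, 4864 and 2359 bases. Expressed genes with the nonamer had a median log2 ratio of -0.017 and those without it -0.020.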
